A study of Mus musculus with 48 samples.

Results

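RNA-seq of mouse kidney around the turn from night to day was compared with RNA-seq around the turn from day to night. The 6 dawn libraries came from the timepoints ZT22, ZT00 and ZT02 and the 6 dusk libraries from ZT10, ZT12 and ZT14, with 2 replicate pools at each timepoint. ZT (Zeitgeber time) counts hours from lights-on, so that lights-off falls at ZT12. These 12 libraries are part of a series of 48, in which 24 kidney pools, collected at intervals of 2 h around the clock, each gave 1 RNA-seq library and 1 library of ribosome-protected fragments (RPF-seq). All animals were unmanipulated C57BL/6JRj males of 11 to 12 weeks, entrained for 2 weeks to equal spans of light and darkness with free access to food. Each pool combined the kidney lysates of 2 mice, and by the labels the groups differ from each other in the time of collection only. The groups were set by time of collection and not by any measured value. The level of a gene is its RPKM on the coding sequence (reads per kilobase of coding sequence relative to library size, after upper quantile normalisation by the authors), and a difference is the mean of log2(RPKM + 0.1) at dawn minus that at dusk. This scale understates the change of genes with low values. Of 12423 genes listed in both assays, 11863 had a median RPKM of at least 0.5 in each of them and were tested.

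Most cells keep time with a feedback loop of transcription. The proteins encoded by Arntl (BMAL1) and by Clock or Npas2 bind E-boxes in DNA and activate the Period and Cryptochrome genes, whose products in turn inhibit them. The nuclear receptors REV-ERB alpha and beta (Nr1d1, Nr1d2), also driven through E-boxes, repress Arntl and Npas2 through ROR elements, at which the ROR receptors activate. The PAR bZIP factors DBP, TEF and HLF and their antagonist NFIL3 act on a further element, the D-box, and pass the rhythm on to other genes. In the kidney, local clocks are known to act on the tubular handling of sodium, water and solutes.

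The letters of these elements are shown for 6 called clock genes, taken from those with an E-box, a D-box or a ROR element in a window around an annotated start. The windows of Npas2, Dbp, Nr1d1, Nr1d2, Cry2, Clock and Hlf held none of them. An E-box was also in the window of Bhlhe41, which was called but is not printed, and in that of Cry1, which was not called. The stretches are from RefSeq on build GRCm38.p6, written 5′ to 3′ on the strand of the gene, with the element in capitals. The stretch of Arntl lies at chr7:113207531-113207557, just after its annotated start, and that of Nfil3 at chr13:52981040-52981081, just before the start. The stretches of Ciart (chr3:95882237-95882374), Per3 (chr4:151044786-151044900), Per1 (chr11:69098753-69098948, before an annotated start within the gene) and Tef (chr15:81802516-81802581) lie upstream of annotated starts. Arntl and Tef are on the plus strand with Per1, and Nfil3, Ciart and Per3 are on the minus strand.
Arntl, ROR element: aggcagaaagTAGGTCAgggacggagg
Nfil3, ROR element on the other strand: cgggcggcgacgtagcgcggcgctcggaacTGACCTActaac
Ciart, E-boxes: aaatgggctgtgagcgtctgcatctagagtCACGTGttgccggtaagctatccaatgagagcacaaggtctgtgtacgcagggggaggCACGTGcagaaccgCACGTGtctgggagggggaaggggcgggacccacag
Per1, E-box and D-box: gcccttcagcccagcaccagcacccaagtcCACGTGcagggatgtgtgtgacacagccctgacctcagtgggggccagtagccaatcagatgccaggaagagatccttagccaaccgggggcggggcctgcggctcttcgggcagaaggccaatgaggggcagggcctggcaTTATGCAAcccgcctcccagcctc
Per3, D-boxes: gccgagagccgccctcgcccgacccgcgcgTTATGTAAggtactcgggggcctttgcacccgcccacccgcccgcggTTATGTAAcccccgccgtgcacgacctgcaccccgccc
Tef, E-box: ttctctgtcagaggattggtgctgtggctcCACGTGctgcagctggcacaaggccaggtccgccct

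The depth behind these values was recovered from the steps of 1 read in the low values, of which 98.3% to 99.5% per library were whole reads within a tolerance of 0.03 reads. It was 10560000 to 22520000 effective reads in the dawn libraries and 12440000 to 33550000 in the dusk libraries, with means of 17210000 ± 4760000 and 18780000 ± 7730000 reads (SD, n = 6 each; two-sided exact permutation test over 924 splits, p = 0.736). The deepest library was ZT12 replicate 1, and the other dusk libraries had at most 19510000 reads. All 66 pairs of the 12 libraries had Spearman correlations between 0.980 and 0.996 across genes, which does not show whether a library differs in few genes. Markers of the nephron segments, from the proximal tubule (6 of 6) to the collecting duct principal cells (4 of 4), were all measured, whereas 0 of 7 markers of the adrenal cortex were listed. Summed marker levels overlapped between the groups in every one of the other 12 cell types. In bulk tissue, fewer cells of a type and less RNA per cell cannot be told apart.

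Of the 11863 genes, 485 were higher at dawn and 540 were higher at dusk at an adjusted p under 0.05 (limma, Benjamini-Hochberg adjustment over all tested genes), or 4.09% and 4.55%. A change was called in this way throughout. Most called changes were modest, with a median of 1.32-fold among the genes higher at dawn and 1.35-fold among those higher at dusk. At least 1.5-fold apart were 117 genes higher at dawn (0.986% of those tested) and 132 higher at dusk (1.11%). Changes of 2-fold or more were seen in 35 genes at dawn and 17 at dusk, and 10 genes changed 4-fold or more. The dawn and dusk pools did not overlap at all in 4.9% of the tested genes, and in 509 of the 1025 called ones. The median difference over all tested genes was 0.0060. Because the pools are the units, the adjusted p rests on the spread of these 12 pools within their groups. Each group joins pools of different timepoints. Its spread therefore holds changes between those timepoints as well as differences between pools of the same timepoint. A fit over all 24 RNA-seq libraries, which keeps the timepoints apart, called 1018 genes higher at dawn and 966 higher at dusk. That fit also draws on libraries outside the 2 groups.

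**Figure D1:**
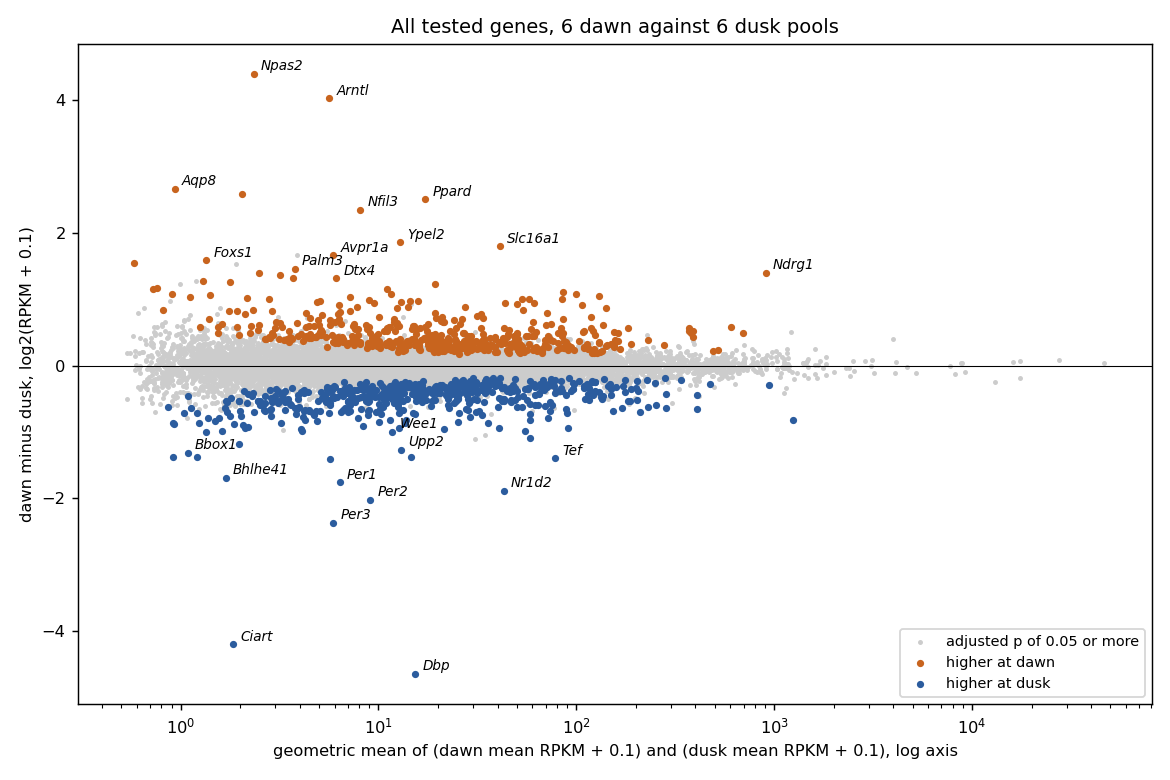
Difference between dawn and dusk (vertical axis, log2 scale) of each of the 11863 tested genes against its mean level (horizontal axis, log scale), with called genes in orange (485 higher at dawn) or blue (540 higher at dusk). Genes among the 12 largest called differences in each direction are named, those not reported here aside, and the clock genes Npas2, Arntl, Dbp and Ciart lie farthest from 0.

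The activating arm of the clock was high at dawn. Npas2 (chr1:39193731-39363236) had the largest difference among the genes higher at dawn, with a lowest, median and highest level of 8.99, 10.3 and 11.3 RPKM in the dawn pools and of 0.167, 0.403 and 0.819 RPKM in the dusk pools. The lowest dawn pool was thus far above the highest dusk pool. The difference was 4.40 ± 0.24 (SE), or 21.1-fold (limma, adjusted p = 1.8e-08). Arntl (chr7:113207465-113314126) was equally steady at dawn, with 19.4, 21.3 and 23.9 RPKM, against 0.615, 0.995 and 2.49 RPKM at dusk. Within dusk it was lowest at ZT10 (0.615 and 0.927 RPKM) and highest in both ZT14 pools (2.22 and 2.49 RPKM). Its difference was 4.03 ± 0.25, or 16.4-fold (adjusted p = 8.7e-08, limma).

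Clock, the partner of BMAL1 and the counterpart of NPAS2, moved much less. It had 25.4, 27.0 and 31.2 RPKM at dawn and 15.5, 19.7 and 21.5 RPKM at dusk, groups that did not overlap, and its difference was 0.52 ± 0.09 (adjusted p = 0.0014, limma). At dusk, when Npas2 was under 1 RPKM in every pool, Clock therefore remained the more abundant by level per length. The receptor gene Rora, which encodes an activator at ROR elements, was not called, with a difference of 0.0032 ± 0.11 (adjusted p = 0.99, limma). Of 5 activators tested, 3 were thus higher at dawn and none at dusk, and the ROR gene Rorb was below the RPKM minimum.

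The repressing arm was largely opposite, since 9 of its 11 members were higher at dusk, 1 was higher at dawn and 1 was not called. All 3 Period genes, which encode the inhibitors of BMAL1, were among them. Per3 (chr4:151003652-151044665) had 2.15, 2.51 and 2.81 RPKM at dawn and 11.1, 13.4 and 14.9 RPKM at dusk, a difference of -2.37 ± 0.09 (5.18-fold, adjusted p = 4.1e-10, limma). Per2 (chr1:91415982-91459324) spread more widely, with 1.90, 4.60 and 5.97 RPKM at dawn against 10.9, 15.5 and 28.9 RPKM at dusk (difference -2.02 ± 0.28, adjusted p = 3.9e-04, limma). That spread followed the time of collection, as the mean over both pools rose from 11.4 RPKM at ZT10 to 15.5 at ZT12 and 28.3 at ZT14. Per1 (chr11:69095217-69109960) did not rise in this way, with 2.93, 3.19 and 4.37 RPKM at dawn and 9.43, 12.0 and 13.2 RPKM at dusk (difference -1.76 ± 0.11). None of the Period genes overlapped between groups.

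Ciart, whose product CHRONO inhibits BMAL1 and CLOCK, showed the largest difference among the repressors. It was near the limit of measurement at dawn, with 0.174, 0.285 and 0.683 RPKM, and reached 4.85, 7.87 and 10.3 RPKM at dusk. Its difference was -4.20 ± 0.24, or 18.4-fold (adjusted p = 2.5e-08, limma). Bhlhe41 (DEC2), a repressor that competes for E-boxes, had 0.478, 0.832 and 1.15 RPKM at dawn against 1.67, 2.50 and 5.07 RPKM at dusk (difference -1.69 ± 0.27). Its relative Bhlhe40 (DEC1) was far more abundant and changed less, by -0.59 ± 0.14, with groups that overlapped.

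The cryptochromes, partners of the PER proteins, were unlike each other. Cry2 was higher at dusk in every pool, at 4.78, 5.76 and 7.61 RPKM at dawn and 10.5, 11.2 and 12.1 RPKM at dusk (difference -0.91 ± 0.12, adjusted p = 2.2e-04, limma). Cry1 was not called (difference 0.29 ± 0.23, adjusted p = 0.49, limma), and its groups overlapped from 5.42 to 11.3 RPKM. It fell from a mean of 12.2 RPKM at ZT22 to 6.46 RPKM at ZT02 and rose from 5.15 RPKM at ZT10 to 10.9 RPKM at ZT14. The dawn and dusk windows therefore cut its course at similar heights on the way down and on the way up.

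Both REV-ERB genes were higher at dusk, but their courses over the day differed. The mean over both pools was highest at ZT08 for Nr1d1 (56.69 RPKM) and at ZT10 for Nr1d2 (94.75 RPKM). Both were lowest at ZT20, at 1.509 RPKM for Nr1d1 and 19.05 RPKM for Nr1d2. Nr1d2 (REV-ERB beta, chr14:18204054-18239127) had 18.7, 20.8 and 28.6 RPKM at dawn and 59.5, 83.4 and 104 RPKM at dusk, without overlap (difference -1.88 ± 0.14, adjusted p = 3.9e-07, limma). Nr1d1 (REV-ERB alpha, chr11:98767932-98775333) had 4.34 to 6.14 RPKM in the 4 pools of ZT22 and ZT00 but 15.0 and 18.9 RPKM in those of ZT02, and 13.7 to 40.4 RPKM at dusk. The ZT02 pools reached into the dusk range. The difference was -1.38 ± 0.35 (adjusted p = 0.026, limma), and the call ended without ZT00 replicate 1, ZT00 replicate 2, ZT12 replicate 1 or ZT22 replicate 1 (adjusted p between 0.052 and 0.064 in limma, difference between -1.63 and -1.19).

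Nfil3 was the exception among the repressors. E4BP4, its product, opposes the PAR bZIP factors at D-boxes. It was higher at dawn, with 12.9, 16.4 and 25.6 RPKM against 2.13, 3.23 and 5.41 RPKM at dusk, and the groups did not overlap. The difference was 2.35 ± 0.20, or 5.09-fold (adjusted p = 3.8e-06, limma).

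The 3 PAR bZIP factors, on the other hand, were all higher at dusk. Dbp (chr7:45705088-45710203) had the largest difference of all tested genes: 1.67, 3.17 and 3.44 RPKM at dawn against 50.4, 78.8 and 99.8 RPKM at dusk, or -4.65 ± 0.18 (25.1-fold, adjusted p = 4.1e-10, limma). Within dusk it was on the way down, from 91.6 and 99.8 RPKM at ZT10 to 62.0 and 50.4 RPKM at ZT14. Tef had 43.5, 49.3 and 51.2 RPKM at dawn and 105, 126 and 144 RPKM at dusk (difference -1.40 ± 0.08). Hlf changed least of the 3, by -0.55 ± 0.12, and its groups overlapped between 30.5 and 38.3 RPKM. Of the genes that act on the stability of clock proteins, 2 of 10 were called, beside 8.64% of all tested genes. The kinase gene Gsk3b was higher at dawn (45.4 to 49.3 against 38.7 to 46.5 RPKM, difference 0.21 ± 0.06, adjusted p = 0.046, limma). Its call ended in 9 of the 12 fits with 1 pool left out, and its footprint difference was -0.21 without a call. The deubiquitinase gene Usp2 was higher at dusk in every pool (26.8 to 30.9 against 49.9 to 59.9 RPKM, difference -0.95 ± 0.06), whereas the kinase genes Csnk1d and Csnk1e, which phosphorylate PER proteins, had differences of 0.03 and -0.07 and were not called.

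**Figure D2:**
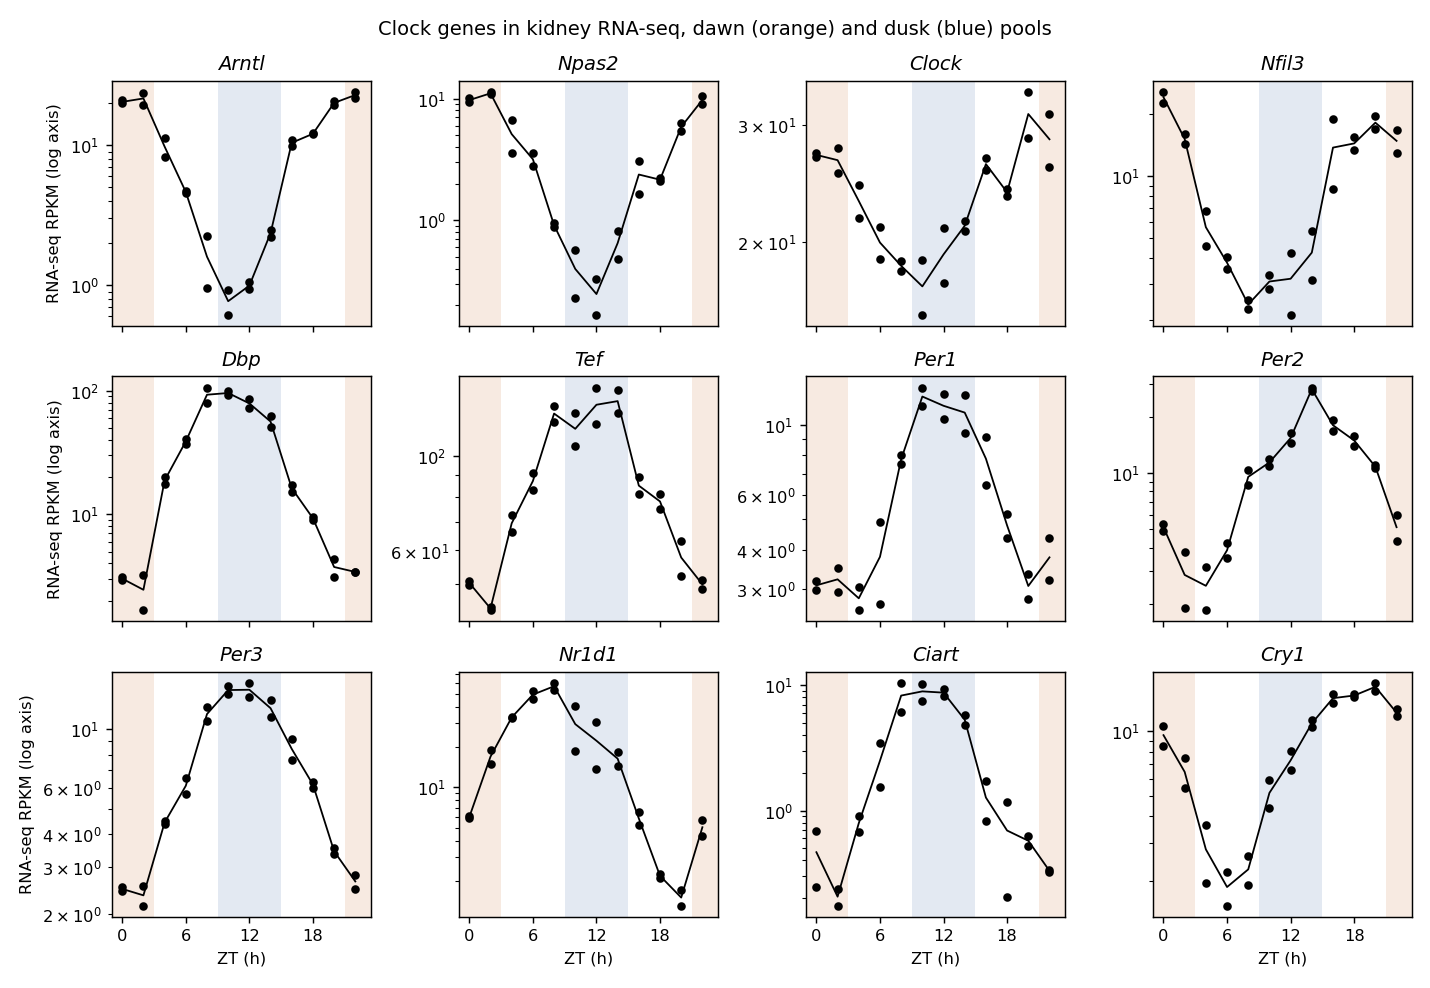
RNA-seq level (RPKM, log axes that differ between panels) of 12 clock genes against Zeitgeber time in hours, with 1 point per pool, the line through the mean of the 2 pools, dawn shaded orange and dusk blue. Arntl, Npas2 and Nfil3 are high in the orange windows and low in the blue one, Dbp, Per1, Per3 and Ciart are the reverse, and Cry1 passes both at similar levels (5.42 to 12.6 RPKM at dawn, 4.36 to 11.3 RPKM at dusk).

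Beyond the clock, the 12 largest differences at dawn, limited to genes with non-overlapping groups and a mean of at least 1 RPKM were led by genes with a wide range of functions. Ppard (PPAR delta, a nuclear receptor for fatty acids, chr17:28232700-28301474) had 27.1, 43.2 and 53.1 RPKM at dawn and 4.72, 7.68 and 9.28 RPKM at dusk (difference 2.51 ± 0.18, adjusted p = 3.9e-07, limma). Slc16a1, which encodes the monocarboxylate transporter MCT1, was among the steadiest: 71.5 to 80.8 RPKM at dawn against a median of 22.9 RPKM and a lowest level of 17.6 RPKM at dusk, with no overlap (difference 1.80 ± 0.09, adjusted p = 4.7e-09, limma). Ndrg1, a gene induced by hypoxia and other stresses, combined a high level with a large difference, with 1357 to 1557 RPKM at dawn and 493 to 600 RPKM at dusk (1.40 ± 0.07). The water channel gene Aqp8 was low throughout and near the limit of measurement at dusk, at 1.35 to 2.78 RPKM at dawn and 0.0744 to 0.590 RPKM at dusk (2.67 ± 0.31). Avpr1a, the vasopressin V1a receptor gene, had 8.38 to 11.4 RPKM at dawn and 2.80 to 3.46 RPKM at dusk (1.66 ± 0.09). The remaining genes were Ypel2 (1.86 ± 0.18), the transcription factor gene Foxs1 (1.59 ± 0.26), Palm3 (1.46 ± 0.12) and Dtx4 (1.32 ± 0.15), all with non-overlapping groups. As few as 6 reads lay behind a pool of Foxs1. For Aqp8, whose lowest dusk pool had 0.0744 RPKM against 0.354 RPKM for Foxs1, read numbers were not recovered.

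At dusk, 8 of the 12 largest differences chosen in this way belonged to the clock genes already described. Among the others were Bbox1, Upp2 and Wee1. Bbox1, the last enzyme of carnitine synthesis, was low, with 0.229 to 0.787 RPKM at dawn and 1.11 to 1.99 RPKM at dusk (-1.31 ± 0.23). Upp2, a uridine phosphorylase gene, had 5.32 to 10.6 RPKM at dawn and 15.8 to 22.4 RPKM at dusk (-1.27 ± 0.14). Wee1, whose kinase holds cells before mitosis, had 6.40 to 10.0 RPKM at dawn and 13.9 to 19.2 RPKM at dusk (-0.99 ± 0.11).

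Gene lists of kidney function were described by counts, beside the 4.09% of all genes higher at dawn and the 4.55% higher at dusk. In the water and urea list, 3 of 15 members were called, all higher at dusk. Aqp3, the basolateral water channel of the collecting duct, had 43.9, 47.6 and 50.4 RPKM at dawn and 61.4, 73.7 and 79.2 RPKM at dusk (-0.58 ± 0.07, adjusted p = 1.8e-04, limma). Aqp11, an intracellular aquaporin gene, differed by -0.38 ± 0.07 without overlap. Aqp2, the vasopressin-regulated channel, had 79.2, 87.8 and 106 RPKM at dawn against 87.3, 136 and 181 RPKM at dusk, and the difference of -0.51 ± 0.14 (adjusted p = 0.036, limma) lost its call in 8 of the 12 fits with 1 pool left out, all but those without ZT00 replicate 1, ZT10 replicate 1, ZT12 replicate 2 or ZT22 replicate 2 (adjusted p 0.0569 to 0.0804 in limma). Aqp2 and Aqp3 were also 2 of the 4 markers of principal cells, whose summed level was 159 to 187 RPKM at dawn and 176 to 297 RPKM at dusk. The other markers, Avpr2 and Scnn1g, had differences of 0.19 and -0.13 and were not called. The part of cell composition in the Aqp2 and Aqp3 results was not tested.

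Of 27 genes of tubular sodium transport, 2 were higher at dusk and none at dawn, beside the 8.64% of all tested genes called in either direction. The list had 1 member higher at dusk without ZT12 replicate 1, ZT10 replicate 2 or any pool of ZT00, ZT02 or ZT14. Not called were the cotransporter genes Slc12a1 (-0.02) and Slc12a3 (-0.17) and the channel subunit Scnn1a (0.02). Slc9a3, the sodium-proton exchanger of the proximal tubule, was higher at dusk in every pool, with 36.8, 41.9 and 47.5 RPKM at dawn and 50.4, 55.0 and 58.5 RPKM at dusk (-0.39 ± 0.07, adjusted p = 0.0035, limma). The acid-base list held 1 call in 17, the membrane carbonic anhydrase gene Car14 (52.3 to 64.4 RPKM at dawn, 77.0 to 109 RPKM at dusk, -0.69 ± 0.08). Of 24 genes for phosphate, calcium and magnesium handling, 4 were higher at dawn and 1 at dusk. Without ZT00 replicate 2, ZT22 replicate 2, ZT12 replicate 1 or any pool of ZT02 or ZT14, 2 were higher at dawn. The tight junction genes Cldn10 and Cldn16 were on opposite sides: Cldn10, whose product conducts ions between cells, had 208 to 235 RPKM at dawn against 124 to 166 RPKM at dusk (0.57 ± 0.07, adjusted p = 1.2e-04, limma), and Cldn16, needed for the reabsorption of magnesium and calcium, had 6.86 to 8.99 RPKM against 9.07 to 12.8 RPKM (-0.47 ± 0.10). Slc8a1, the basolateral sodium-calcium exchanger, was higher at dawn by 0.39 ± 0.09.

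Most genes of nutrient transport were not called. Among 29 genes of amino acid and organic ion transport, 26 were not called (list median -0.00088) and 3 were higher at dusk, among them Slc7a9, a subunit of the cystine carrier (69.3 to 79.5 RPKM at dawn, 85.5 to 106 RPKM at dusk, -0.39 ± 0.06), and the neutral amino acid carrier gene Slc6a19 (-0.53 ± 0.12, with overlapping groups). The glucose list had 14 of 18 members not called (median -0.11) and 4 higher at dusk, or 2 without ZT12 replicate 1 or any of the 6 dawn pools. The fructose carrier gene Slc2a5 had 35.6, 41.0 and 46.4 RPKM at dawn and 57.4, 60.9 and 70.2 RPKM at dusk (-0.62 ± 0.08, adjusted p = 1.8e-04, limma). Pck1, the key enzyme gene of gluconeogenesis, ranged from 602 to 1063 RPKM at dawn and from 742 to 2629 RPKM at dusk, the highest in both ZT14 pools. Its difference of -0.82 ± 0.23 (adjusted p = 0.039, limma) kept its call only without ZT10 replicate 1 or ZT10 replicate 2, and in the other 10 fits with 1 pool left out the adjusted p was 0.0512 to 0.0818.

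The list of fatty acid oxidation and PPAR alpha targets had 6 of 30 members higher at dusk and none at dawn, and 3 without either ZT02 pool or 2 without ZT12 replicate 1. Ppara itself had 41.6, 46.0 and 50.4 RPKM at dawn and 55.1, 64.1 and 67.4 RPKM at dusk (-0.46 ± 0.06, adjusted p = 3.9e-04, limma). Cpt1a, which controls the entry of fatty acids into mitochondria, had 168 to 187 RPKM at dawn and 205 to 257 RPKM at dusk (-0.38 ± 0.06). The fasting-induced Cyp4a14 (-1.05 ± 0.49) was not called, and its dusk pools spread from 17.8 to 133 RPKM. In the list named for NAD synthesis, 6 of 13 members were higher at dusk and none at dawn (3 without ZT00 replicate 2, ZT02 replicate 1 or ZT12 replicate 1). Among them were Nmrk1 (-0.59 ± 0.11), Nadsyn1 (-0.48 ± 0.08) and Qprt (-0.36 ± 0.07), each without overlap. The called members also included Sirt3 (-0.27 ± 0.07), whose product uses NAD and does not make it. Of 13 genes of heme synthesis and its users, Por, the electron donor of cytochromes P450, and Alas1, the rate-limiting enzyme gene, were higher at dusk (-0.54 ± 0.08 and -0.64 ± 0.14), and Uros was higher at dawn (0.30 ± 0.08), a call that 10 of the 12 fits with 1 pool left out did not make (adjusted p 0.0605 to 0.0876 in limma, all but those without ZT10 replicate 2 or ZT12 replicate 2).

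Cholesterol synthesis was on the side of dawn, where 6 of 25 members were higher and none lower, with a list median of 0.16. Msmo1 (39.1, 41.7 and 46.3 RPKM at dawn against 16.3, 26.4 and 32.2 RPKM at dusk, 0.77 ± 0.12, adjusted p = 0.0013, limma) and Fdps (0.74 ± 0.13) encode enzymes of the pathway and did not overlap between groups. Idi1 followed with 0.73 ± 0.14, and Sqle (0.41 ± 0.08) was called as well.

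Chaperones of the endoplasmic reticulum made up the list with the most calls outside the clock: 8 of 20 were higher at dawn and 1 was higher at dusk, with a median of 0.28. Calr, the calcium-binding chaperone calreticulin, had 641, 730 and 831 RPKM at dawn and 452, 488 and 563 RPKM at dusk (0.58 ± 0.08, adjusted p = 2.6e-04, limma). Hsp90b1 (GRP94) had 393 to 521 RPKM at dawn and 253 to 349 RPKM at dusk (0.56 ± 0.09). The disulfide isomerase genes Pdia6 and Pdia3 differed by 0.51 ± 0.07 and 0.52 ± 0.11, and Hspa5 (BiP) by 0.37 ± 0.18 without a call. The exception was Herpud1, whose product acts in the degradation of misfolded proteins, with 149 to 181 RPKM at dawn and 198 to 330 RPKM at dusk (-0.71 ± 0.10). Between midday (ZT04 to ZT08) and midnight (ZT16 to ZT20), more of this list was called, with 15 of 20 higher at midnight and 0 at midday. That comparison called 34.5% of all tested genes in either direction (15.2% higher at midnight), against 8.64% between dawn and dusk. In the cytosol, 3 of 23 heat shock chaperones were higher at dawn, led by Hsp90aa1 (380 to 503 RPKM against 251 to 401 RPKM, 0.49 ± 0.12), while Hspa1a and Hspa1b, near-identical genes whose reads may be shared, differed by -0.36 ± 0.42 and -0.61 ± 0.46 without a call. Rbm3, a cold-inducible RNA-binding protein gene, was higher at dusk (49.6 to 94.0 against 90.6 to 128 RPKM, -0.72 ± 0.14), and the other member of its list, Cirbp, had -0.58 ± 0.29 and was not called.

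The list of glucocorticoid-responsive genes had 4 of 18 members higher at dusk and 1 higher at dawn, with a median of -0.33. Per1 is one of them. Tsc22d3 (GILZ), a mediator of the hormone's action, had 27.3, 39.0 and 53.7 RPKM at dawn and 50.5, 91.8 and 119 RPKM at dusk (-1.09 ± 0.21, adjusted p = 0.0044, limma), and the transcription factor gene Zbtb16 had 2.22 to 6.07 RPKM at dawn and 3.58 to 12.9 RPKM at dusk (-1.41 ± 0.31), both with overlap. Cdkn1a (p21), a cell cycle inhibitor gene, went the other way, with 2.14 and 2.38 RPKM at ZT22, 6.29 to 6.60 RPKM in the 4 pools of ZT00 and ZT02, and 0.733 to 3.07 RPKM at dusk. The change between ZT22 and ZT00 thus lay within the dawn group itself. Its difference of 1.36 ± 0.34 (adjusted p = 0.025, limma) lost the call without any of the 4 pools of ZT00 and ZT02 or without ZT12 replicate 1 (adjusted p 0.0562 to 0.0613). Of 20 cell cycle and DNA damage genes, 16 were not called, 3 were higher at dusk (Wee1, described above, Ccnd1 and Ccnd3) and Cdkn1a was the 1 higher at dawn. The cyclin gene Ccnd1 had 66.7 to 77.4 RPKM at dawn and 93.3 to 124 RPKM at dusk (-0.65 ± 0.08), and Ccnd3 differed by -0.53 ± 0.08. The other cyclins listed, Ccnd2 (-0.34), Ccnb1 (-0.19) and Ccng1 (0.12), were not called. Of 18 immediate early genes, 4 were higher at dusk (2 without any of the 4 pools of ZT00 and ZT02, or without ZT10 replicate 2, ZT12 replicate 1, ZT14 replicate 1, ZT14 replicate 2 or ZT22 replicate 1), among them Ier3 (-0.96 ± 0.23) and Klf2 (-0.67 ± 0.13), and 1 at dawn, Myc, with 1.75 to 3.93 RPKM against 1.77 to 2.01 RPKM (0.61 ± 0.16), whose call ended without ZT00 replicate 1, ZT02 replicate 1, ZT02 replicate 2 or ZT12 replicate 1 (adjusted p 0.064 to 0.0718 in limma).

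The remaining lists are given by their counts, again beside the 8.64% of all genes called in either direction. Of 81 cytosolic ribosomal protein genes none was called (median -0.03), nor was any of 12 mitochondrially encoded genes or 17 actin cytoskeleton genes, by the same limma fit. At an unadjusted p under 0.05 the same fit held 8 ribosomal protein genes, 0 mitochondrially encoded genes and 3 actin cytoskeleton genes. Of all 11863 tested genes, 2782 passed that threshold. The 77 nuclear subunits of the respiratory chain held 1 call and the 36 proteasome subunits 2 (4 without ZT12 replicate 2), of which Psmd11 was the larger (0.45 ± 0.08). Renin (Ren1, -0.09) and the other members of the renin-angiotensin and endothelin list were not called except Ednrb, an endothelin receptor gene (-0.42 ± 0.10), which was higher at dusk. The oxidative stress list had 2 of 13 members higher at dawn, the reductase genes Txnrd1 (0.35 ± 0.08) and Gsr (0.25 ± 0.06).

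**Figure D3:**
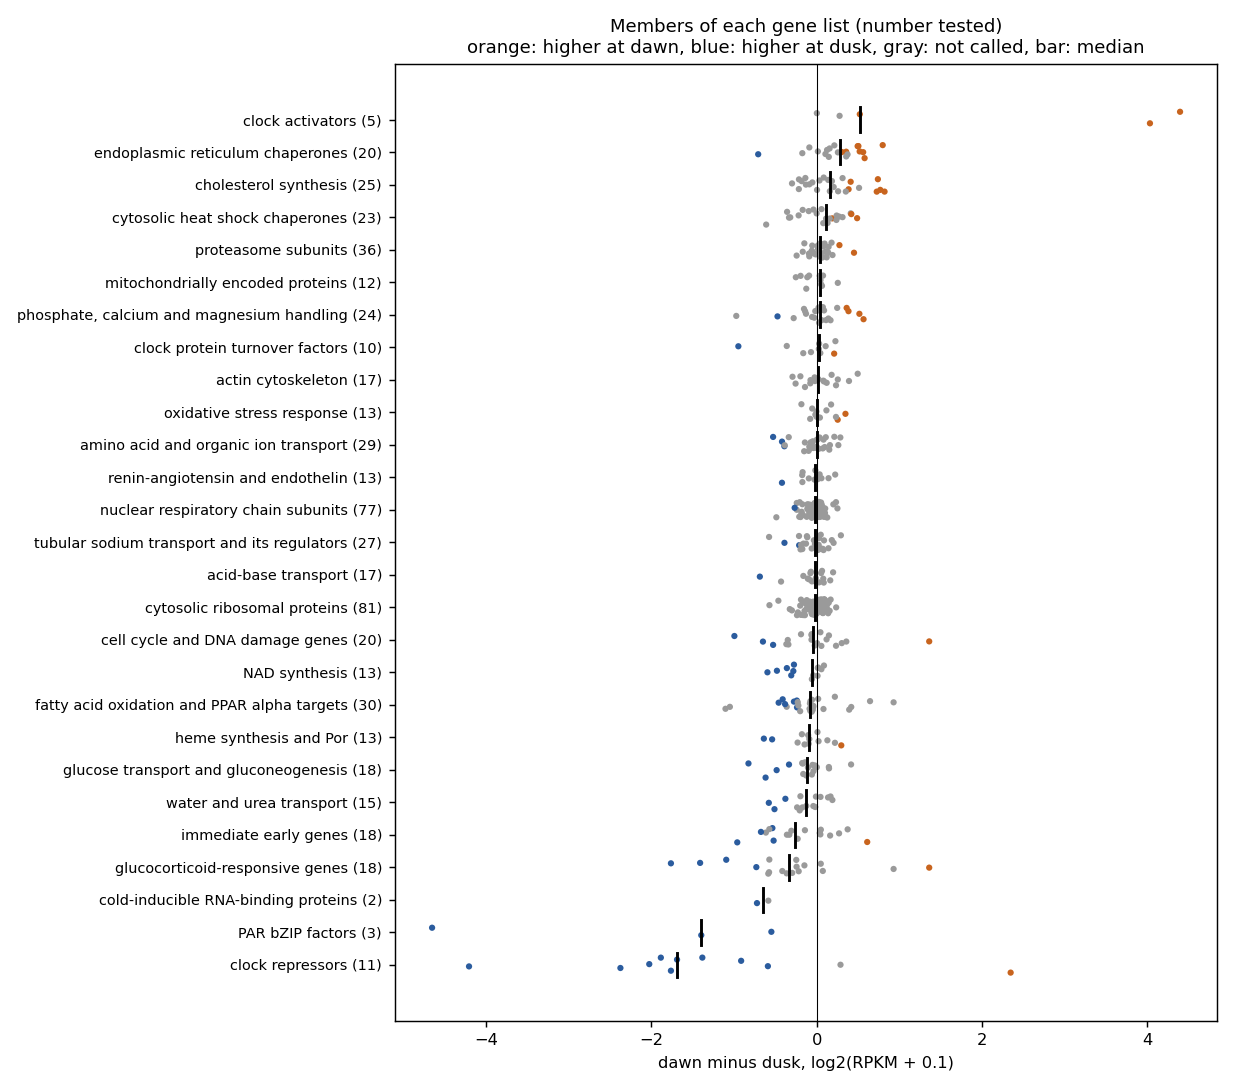
Difference between dawn and dusk (horizontal axis, log2 scale) of each tested member of the 27 gene lists, with the number tested in brackets, called members in orange or blue and a bar at the list's median. The clock lists spread widest, while the medians of the 81 ribosomal protein genes and 77 respiratory chain genes are -0.03 and -0.02, with single members from -0.57 to 0.24 and from -0.49 to 0.25.

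The position of the peak within the day was read from the means of the 12 timepoints. Of the 117 genes at least 1.5-fold higher at dawn, 78 had their highest mean within the dawn window, most often at ZT02 (49 genes), 17 in the 4 to 8 h after lights-on, and 22 between ZT16 and ZT20. Of the 132 genes higher at dusk, 105 were highest within the dusk window, with 54 at ZT14, 27 at ZT12 and 24 at ZT10. The lowest mean lay in the opposite window in 109 of the 117 and in 85 of the 132. The windows chose these genes, so the counts describe their courses and test nothing.

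The 12 RNA-seq libraries collected between these windows, at midday (ZT04 to ZT08) and midnight (ZT16 to ZT20), share no pool with the dawn and dusk libraries. In the same kind of fit, 19.3% of the tested genes were higher at midday and 15.2% higher at midnight, 4093 in all against 1025 between dawn and dusk. The medians of the standard errors were 0.087 and 0.097, and those of the size of the difference over all genes 0.17 and 0.12. At 2-fold or more the counts were closer, with 70 genes between midday and midnight and 52 between dawn and dusk. Of the genes called between dawn and dusk, 294 of the 485 higher at dawn and 347 of the 540 higher at dusk were not called between midday and midnight. These are 60.6% and 64.3%, near the 65.5% of all tested genes.

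Cry1 and Rora were not called between dawn and dusk, and of these Cry1 was called between midday and midnight and Rora was not. Cry1 was lower at midday by 2.69 (adjusted p = 8.8e-08, limma). Nr1d1 had the larger difference between midday and midnight, at 4.02 (46.3 against 3.19 RPKM) beside -1.38 between dawn and dusk, and Dbp had 2.29 beside -4.65. For Npas2, Per1 and Per3 the midday to midnight differences were -0.32, -0.16 and 0.26, none of them called, beside 4.40, -1.76 and -2.37. The cytosolic heat shock chaperones had more calls between midday and midnight, with 18 of 23 higher at midnight and 1 at midday, than between dawn and dusk, with 3 of 23 higher at dawn. Likewise, 15 of 20 endoplasmic reticulum chaperones were higher at midnight and 0 at midday, beside 8 higher at dawn and 1 at dusk. None of these pairs of differences was tested against each other.

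**Figure D4:**
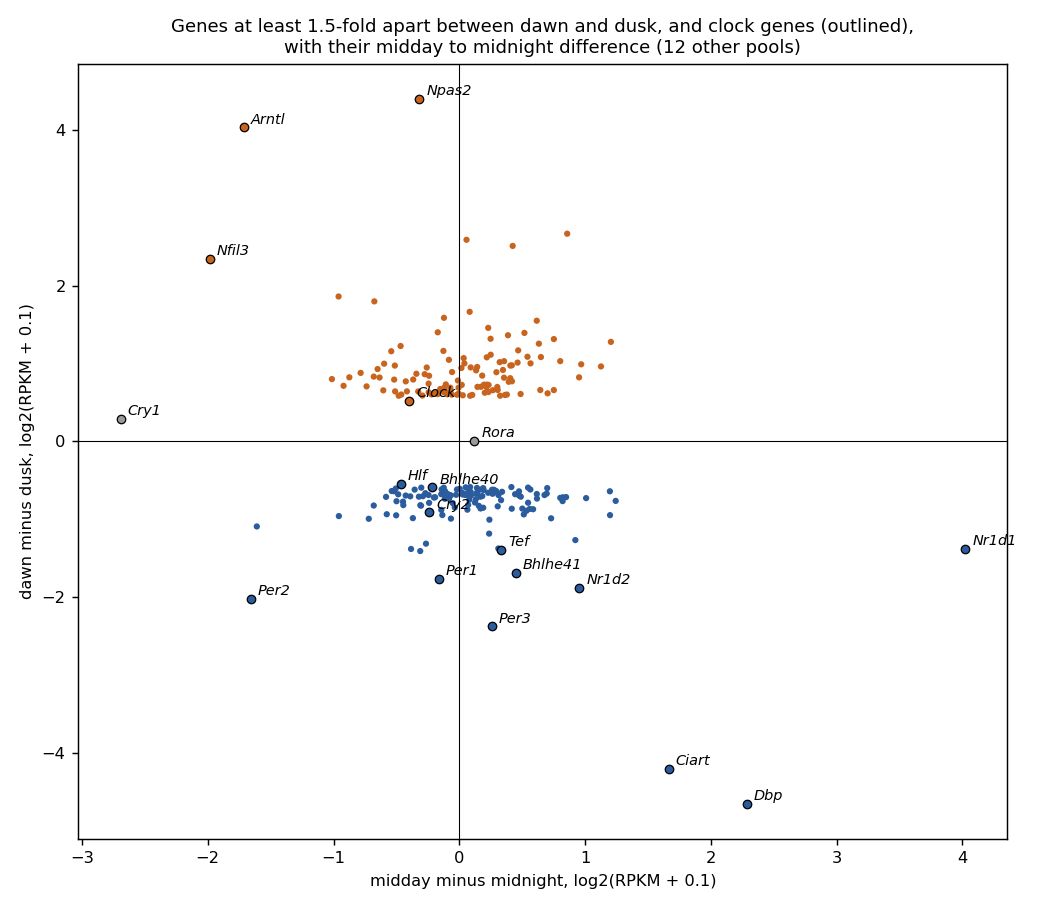
Difference between dawn and dusk (vertical axis) against the difference between midday and midnight (horizontal axis), both on the log2 scale, for the 249 genes at least 1.5-fold higher at dawn (orange) or dusk (blue), with the clock genes reported here outlined and gray where not called. Cry1 lies far to the left near 0 on the vertical axis, Npas2 and Per3 near 0 on the horizontal axis, and Nr1d1 at 4.02 to the right.

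Ribosome footprints of the same pools were set beside the transcript levels. They come from the same lysates, so they are a second measurement of these mice and not a second set of animals. In RPF-seq, 4.32% of the genes were higher at dawn and 4.6% were higher at dusk. Of the 485 transcripts higher at dawn, 231 were also called in RPF-seq in the same direction (47.6% of them and 45.0% of the 513 footprint calls), and of the 540 higher at dusk 249 were (46.1% and 45.6% of 546). None was called in the opposite direction. Of those at least 1.5-fold apart, 98 of 117 and 92 of 132 were called in both. The footprint differences of the leading genes were 4.27 for Npas2, 4.12 for Arntl, -4.39 for Dbp, -4.47 for Ciart and 2.88 for Ppard, beside transcript differences of 4.40, 4.03, -4.65, -4.20 and 2.51. Some transcript calls had small footprint differences without a call, as for Aqp11 (-0.15), Qprt (-0.14), Klf2 (-0.25) and Cldn16 (-0.23), although the difference between the assays was not tested.

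The elements printed above and the cyclic AMP element were counted in the promoters, taken as 250 bases before to 50 bases after each annotated RefSeq start, on both strands. Promoters were found for 9337 of the 11863 tested genes, for 91 of the 117 genes at least 1.5-fold higher at dawn and for 97 of the 132 higher at dusk, and a gene counted if any of its windows held the element. The E-box CACGTG was in 8.79% of the dawn genes, 14.4% of the dusk genes and 11.9% of all tested genes, and among all called genes in 10% and 15.7%. A D-box (TTATGTAA, TTACGTAA or TTATGCAA) was in 0 of 91 dawn genes, in 7 of 97 dusk genes (7.22%) and in 1.7% of all, but among all called genes with a promoter it was in 6 of 380 dawn genes (1.58%) and 13 of 426 dusk genes (3.05%). The ROR element core TAGGTCA was in 6 of 91 dawn genes (6.59%), 2 of 97 dusk genes (2.06%) and 2.44% of all, and among all called genes in 5% and 2.82%. The cyclic AMP element TGACGTCA was in 2.2%, 0 and 3.38%, and among all called genes in 3.16% and 1.64%. The groups had 1.29 and 1.32 windows per gene against 1.28 over all genes. These shares rest on few genes, were not tested, and say nothing of the binding of a factor.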

How the data were processed

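Kidney lysate pools gave total RNA libraries after removal of rRNA. Adapters were removed by the authors (Cutadapt) and reads selected by length. Reads were aligned stepwise, first to structural RNAs and then to cDNA (Bowtie 2.2.1) and the genome GRCm38.p2 (Tophat 2.0.11). Those on coding sequences were counted and scaled by upper quantiles (edgeR), and the authors deposited 1 RPKM file per library. Upper quantile scaling hides any change in total mRNA per cell. The deposited RPKM values are not counts, so no count model was used. Genes the authors had left out were not analysed here.

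Values were taken as log2(RPKM + 0.1) and fitted with limma 3.58.1 in R 4.3.3 (empirical Bayes with a variance trend) over the 12 libraries, with Benjamini-Hochberg adjustment over the 11863 tested genes and a threshold of 0.05. On simulated data for this comparison with 200 of 11863 genes changed, the fit recovered 80% of 1.5-fold and 95% of 2-fold changes, and 6.42% of its calls were false. The simulated noise was normal and independent between genes and pools. It held no trend between timepoints and no deviation shared by the genes of a pool, so these rates need not hold for the real calls. Effective depth is the library size at which low values become whole reads over the coding length. Depth was compared with scipy 1.17.1. Figures were drawn with matplotlib. Coordinates are from GENCODE on GRCm38, the build of the files, and 48 tested genes had no symbol. The groups and gene lists were chosen with earlier results of these data known. Named were all tested clock activators, repressors and PAR bZIP factors, the 12 largest called differences in each direction among genes with a mean of at least 1 RPKM and non-overlapping groups, and up to 4 called genes of each other list with the largest differences (all, where a list had at most 5 called). Some genes that this rule selects are not reported here. Any further gene named was chosen after its values were seen. Whether same-numbered replicates vary together was checked over the 15 pairs of the 6 timepoints. The alternatives were other pseudocounts, RPKM minima, quantile normalisation, a fit over all 24 RNA-seq libraries, a replicate block, fewer timepoints and fits without each replicate or pool.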

Additional observations from a re-analysis of the deposited data

Results flagged for a closer look

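Groups of 6 pools were searched for a single pool whose gap to the nearest other pool was, relative to the range of the group, over Dixon's 95% critical value. This marked 13 of 186 groups, where chance alone marks about 1 group in 20. Among clock genes, ZT02 replicate 2 had 1.67 RPKM of Dbp against 2.93 to 3.44 RPKM in the other dawn pools, ZT00 replicate 1 had 0.683 RPKM of Ciart against 0.174 to 0.336 RPKM, and ZT22 replicate 1 had 38.3 RPKM of Hlf against 24.3 to 28.5 RPKM. The same dawn pool ZT22 replicate 1 had 45.4 RPKM of Gsk3b against 48.5 to 49.3 RPKM.

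At dusk, ZT10 replicate 2 stood apart in 4 genes. It had 492 RPKM of Calb1 against 243 to 303 RPKM, 6.21 RPKM of Dtx4 against 3.00 to 3.75 RPKM, 184 RPKM of Slc8a1 against 121 to 139 RPKM, and 55.1 RPKM of Ppara against 63.3 to 67.4 RPKM. In Calb1, Dtx4 and Slc8a1 this pool was on the side of the dawn values, and so it was in Ppara.

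The other marked pools were ZT02 replicate 1 with 0.229 RPKM of Bbox1 against 0.596 to 0.787 RPKM, ZT00 replicate 1 with 118 RPKM of Cpt2 against 96.2 to 104 RPKM, ZT22 replicate 2 with 602 RPKM of Pck1 against 920 to 1063 RPKM, and ZT12 replicate 2 with 196 RPKM of Nampt against 147 to 160 RPKM. The effective depth of ZT12 replicate 1 was 33550000 reads, and that of the other dusk libraries was 12440000 to 19510000 reads.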

How the results depend on the processing

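Between dawn and dusk, 485 genes were higher at dawn and 540 at dusk, and with 1 library left out at a time, or without replicate 1 or 2 of every timepoint, the counts were 50 to 631 and 27 to 614 (49 to 123 and 25 to 146 at 1.5-fold or more). Both lowest values are those without replicate 1, where 3 pools are left in each group. Single pools that moved a count by over 1.5 times were ZT02 replicate 1 (295 at dawn, 325 at dusk), ZT02 replicate 2 (305 and 330) and ZT12 replicate 1 (309 and 293) on both sides, and ZT00 replicate 2 (338) and ZT14 replicate 1 (357) for the dusk count. With only ZT00 and ZT12, 2 pools a group, the counts were 29 and 20, both in all and at 1.5-fold or more. A fit over all 24 RNA-seq libraries by timepoint called 1018 and 966 genes. With a pseudocount of 1 the dusk genes at 1.5-fold or more numbered 83. RPF-seq, with 1059 genes called in either direction, ranged from 80 to 1120 with libraries left out and had 145 with the middle timepoints only. Midday against midnight, with 4093, ranged from 348 to 4858 and had 2386 without replicate 2 and 2099 with the middle timepoints only.

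Over the 15 pairs of timepoints, deviations of same-numbered replicates had correlations from -0.13 to 0.37 (median 0.032), of which 5 were over 0.1, so the numbers were not taken to pair the pools. A replicate block gave 491 and 547 genes, and 117 and 133 at 1.5-fold or more, and 3 called genes named by the rule lost the call, among them Gsk3b and Klf4 (adjusted p 0.0531 and 0.0552, limma). Of the 89 called genes named by the rule, 66 kept the call without any single pool, and none changed direction under the 22 alternatives. Fits on fewer pools lost more of these 89 calls. Lost were 66 without replicate 1 of every timepoint, 43 without replicate 2 and 62 with only ZT00 and ZT12. Only changes in level relative to the other genes can be seen, and genes under about 1 RPKM rest on few reads.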

Other observations

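The genes of the 3 fibrinogen chains, chosen after the values were seen, were higher at dawn. Fga had 19.4, 29.8 and 40.0 RPKM (lowest, median, highest) at dawn and 10.6, 12.4 and 14.6 RPKM at dusk (difference 1.22 ± 0.16, adjusted p = 1.8e-04, limma), Fgg had 6.66 to 10.0 RPKM against 3.44 to 6.07 RPKM (0.81 ± 0.13), and Fgb had 2.34 to 5.96 RPKM against 0.667 to 3.41 RPKM (1.39 ± 0.33, with overlap). The footprint differences of Fga, Fgg and Fgb were 1.02, 0.46 and 0.32, the last not called. Mup3 (2.59 ± 0.67), Hpx (1.17 ± 0.33) and Kng1 (0.84 ± 0.23), also chosen after their values were seen, were higher at dawn with overlapping groups. Their footprint differences were of the opposite sign, at -0.42, -0.84 and -0.58, and were not called. Their transcript calls ended in 6, 8 and 8 of the 12 fits with 1 pool left out. Of the 6 hepatocyte markers, Fgb was the only one called. The summed level of these markers was 141 to 418 RPKM at dawn and 140 to 460 RPKM at dusk. The albumin gene Alb differed by 0.74 ± 0.30 and Ttr by -0.07 ± 0.32. The part of such RNA in the results for the fibrinogen genes, Mup3, Hpx and Kng1 was not tested.

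Solute carriers, taken as all 268 tested genes named Slc and a number, had 13 members higher at dawn (4.85%) and 32 higher at dusk (11.9%), beside 4.09% and 4.55% of all genes. At dawn, Slc10a2, the sodium-dependent bile acid carrier gene, had 65.2 to 73.1 RPKM against 29.9 to 42.4 RPKM at dusk (0.93 ± 0.09, adjusted p = 7.3e-06, limma). At dusk, Slc5a6, which carries biotin and pantothenate, had 15.5 to 23.0 RPKM against 8.05 to 12.4 RPKM at dawn (-0.86 ± 0.12), and the urate carrier gene Slc2a9 had 8.99 to 13.6 RPKM against 5.98 to 7.80 RPKM (-0.68 ± 0.11). Their groups did not overlap. Rdh10, which oxidises retinol and was also chosen after its values were seen, had 80.2 to 89.0 RPKM against 40.5 to 51.5 RPKM at dusk (0.95 ± 0.07, adjusted p = 3.1e-07, limma).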
